A study of Homo sapiens with 5 samples.

Results

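The genes described here encode 9 DNA helicases that guard genome stability: RTEL1, PIF1, the RecQ helicases BLM, WRN, RECQL, RECQL4 and RECQL5, and the partner enzymes BRIP1 and DNA2. They were taken by gene symbol, and all 9 were found among the 26364 symbols that had a value in all 5 libraries. The members were chosen by gene family, and selected on the deposited log2 values of these libraries, in which RTEL1 was among the genes higher after STAU1 knockdown and PIF1 among the lowest genes in differentiated cells. Those values are therefore given as a description and were not tested.

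The libraries were made from SH-SY5Y, a human neuroblastoma cell line (listed as CRL-2266) in which retinoic acid can induce a neuronal phenotype. There was 1 library in each of 5 groups: siRNA against STAU1 (siSTAU1), siRNA against UPF1 (siUPF1), control siRNA (siControl), Differentiation and Nondifferentiation. STAU1 binds double-stranded RNA and UPF1 is an RNA helicase of mRNA decay, and both act in Staufen-mediated decay. The design asks which transcripts are higher both when these factors are depleted and when cells differentiate. All groups were grown in medium with 10% serum and 1% antibiotics. The labels list 50 μM retinoic acid for both Differentiation and Nondifferentiation and none for the siRNA groups, and they give no times or siRNA doses. All groups come from 1 cell line, and with 1 library per group the spread between cultures is unknown, so no difference has a replicate check and no p-value is given.

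Helicases use ATP to separate nucleic acid strands. RecQ helicases unwind DNA from 3′ to 5′ and take apart recombination intermediates and stalled forks, while RTEL1, BRIP1, PIF1 and DNA2 move from 5′ to 3′, and several of the family open G-quadruplexes, the folded structures of guanine-rich DNA. In dividing cells these enzymes work at replication forks, at telomeres and at DNA breaks, and inherited loss of BLM, WRN or RECQL4 causes Bloom, Werner or Rothmund-Thomson syndrome.

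The values were log2 expression values from sequencing of the 3′ ends of polyadenylated RNA, so that they do not scale with transcript length. The steps between low values put the depth at about 16700000 to 18600000 reads in siSTAU1, siUPF1, siControl and Nondifferentiation and about 26400000 in Differentiation. A gene was called measured in a pair of libraries when the larger of its 2 values reached the median of their nonzero values, a log2 value between 7.76 and 7.84. A measured gene whose values differed by at least 2-fold counts below as higher or lower. Counting intervals below are at the 95% level and cover the estimated read counts alone. STAU1 was 2.88-fold lower in siSTAU1 than in siControl, and UPF1 was 2.90-fold lower in siUPF1 than in siControl. In all 5 libraries 10 or 11 of the 12 noradrenergic neuroblastoma markers had log2 values of at least 7.5, and SOX10, FOXD3 and PTPRC, which define glial and blood cells, were listed at 0. In bulk RNA, fewer cells of a type and less RNA per cell cannot be told apart.

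Promoter sequences are shown for 3 genes that were lower in Differentiation and 1 that was level, because the letters known to bind cell cycle regulators can be read in them. RefSeq promoters were matched for 6 of the 9 genes, RTEL1 with 2 of them; WRN, RECQL4 and DNA2 had no entry. Each printed window runs from 250 bases before the transcript start to 29 bases from it on, 5′ to 3′ on the gene's own strand in build GRCh38.p14, at chr15:64825619-64825897 (minus strand) for PIF1, chr15:90717096-90717374 (plus strand) for BLM, chr17:61863500-61863778 (minus strand) for BRIP1 and chr12:21501607-21501885 (minus strand) for RECQL. Capitals mark the E2F core TTCCCGC, the cell cycle homology region TTTGAA and the CCAAT box, on either strand.
PIF1: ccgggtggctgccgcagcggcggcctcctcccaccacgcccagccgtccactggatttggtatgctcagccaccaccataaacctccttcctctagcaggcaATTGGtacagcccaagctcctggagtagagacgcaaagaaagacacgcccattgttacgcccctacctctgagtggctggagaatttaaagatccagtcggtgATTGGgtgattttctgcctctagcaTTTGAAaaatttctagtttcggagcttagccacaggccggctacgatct
BLM: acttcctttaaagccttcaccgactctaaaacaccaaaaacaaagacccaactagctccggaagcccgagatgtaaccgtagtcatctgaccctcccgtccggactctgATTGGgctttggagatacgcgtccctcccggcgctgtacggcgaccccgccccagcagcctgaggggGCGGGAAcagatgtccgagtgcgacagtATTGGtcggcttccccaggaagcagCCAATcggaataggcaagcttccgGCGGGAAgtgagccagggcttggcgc
BRIP1: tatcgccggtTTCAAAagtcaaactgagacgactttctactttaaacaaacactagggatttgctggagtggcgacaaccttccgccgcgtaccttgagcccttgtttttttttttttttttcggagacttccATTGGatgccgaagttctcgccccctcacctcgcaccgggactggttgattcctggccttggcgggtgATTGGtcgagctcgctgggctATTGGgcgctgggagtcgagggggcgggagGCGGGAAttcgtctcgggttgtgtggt
RECQL: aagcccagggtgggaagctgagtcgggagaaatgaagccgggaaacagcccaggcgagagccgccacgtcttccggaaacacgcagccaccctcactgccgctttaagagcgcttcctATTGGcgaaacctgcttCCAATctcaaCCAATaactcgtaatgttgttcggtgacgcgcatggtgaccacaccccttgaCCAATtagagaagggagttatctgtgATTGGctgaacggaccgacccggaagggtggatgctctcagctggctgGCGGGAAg

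The motifs were searched on both strands of the whole 300-base windows, which hold 50 bases from the start on. PIF1, whose helicase unwinds G-quadruplexes and in yeast removes telomerase from DNA, had TTTGAA at position -20 and CCAAT at positions -45 and -148, counted from the start. BLM, whose helicase dissolves double Holliday junctions, had TTCCCGC at positions -74 and 4, with CCAAT 3 times. BRIP1, a helicase that binds BRCA1, had TTCCCGC at position 3, TTTGAA at position -240 and CCAAT 3 times. RECQL, the level gene, had TTCCCGC at position 22 and CCAAT 5 times. Neither RTEL1 promoter and not that of RECQL5 held TTCCCGC or TTTGAA, and RECQL5 had CCAAT once. Of 35116 promoters of the same length, 6.55% held TTCCCGC, 15.2% TTTGAA and 34.6% CCAAT. The longer TTTCCCGC, which contains TTCCCGC, was in none of the 7 promoters and in 1.63% of all, and TTCGAA (1.45% of all) and the nuclear receptor motif AGGTCA (13.8% of all) were in none of the 7 either. The GC box GGGCGG, held by 45.0% of all promoters, was found in those of BLM, BRIP1 and RECQL5 and in 1 of the 2 of RTEL1, and in BLM it overlapped a TTCCCGC match. These matches are letters only, and binding was not measured.

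**Figure D1:**
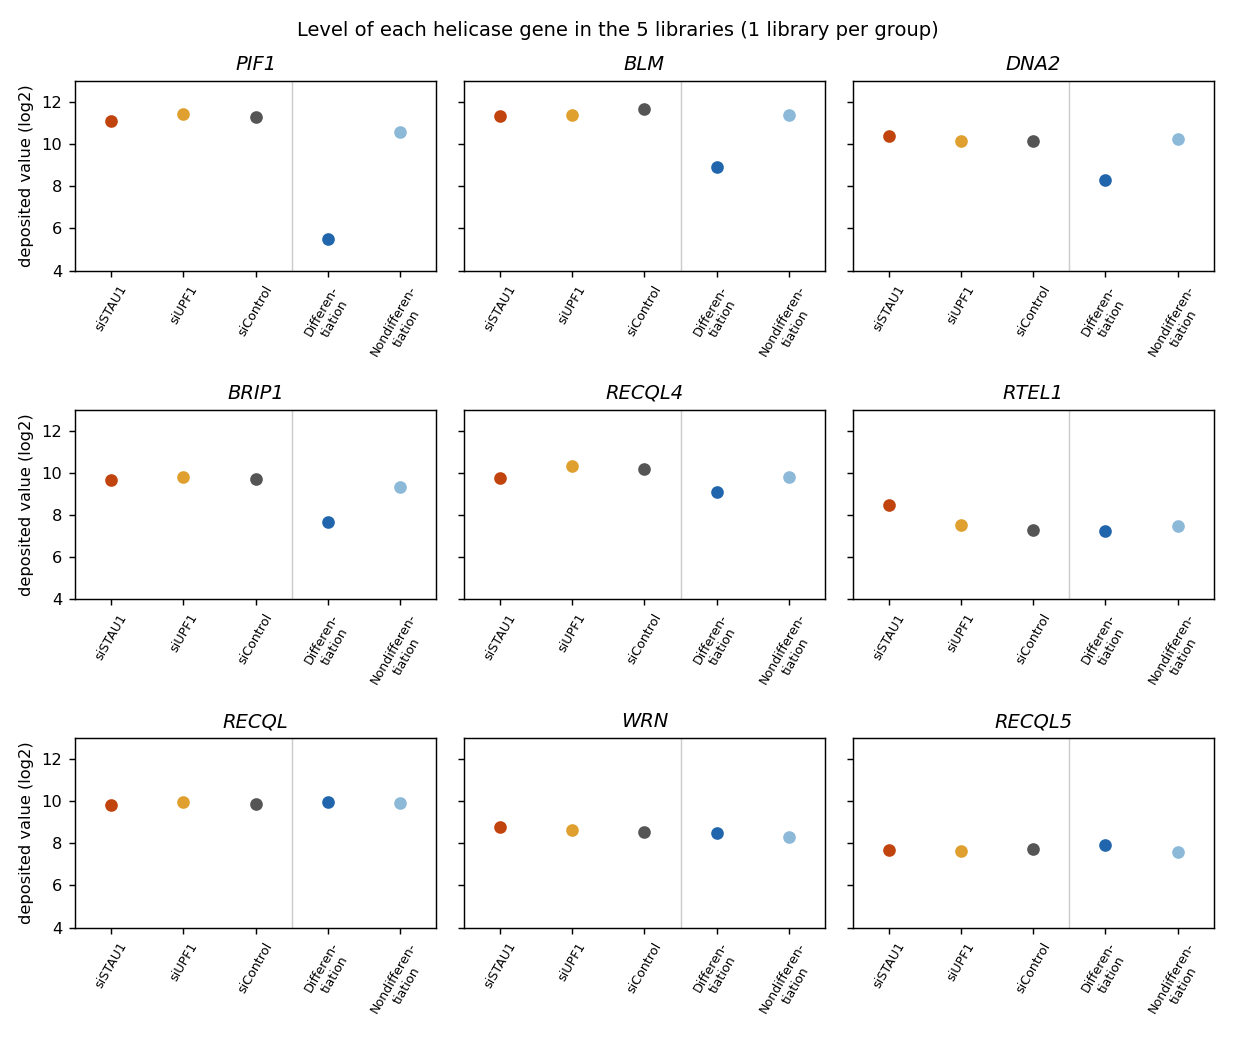
Deposited log2 value (vertical axis, starting at 4) of each helicase gene in the 5 libraries, 1 point per library and no error bar because each group has 1 library. PIF1, BLM, DNA2 and BRIP1 are lowest in Differentiation, RTEL1 is highest in siSTAU1 at 8.45, and RECQL stays within 0.14 over all libraries.

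Between Differentiation and Nondifferentiation the helicase genes formed a lower and a level set. PIF1, BLM, DNA2 and BRIP1 were 3.19-fold to 33.7-fold lower in Differentiation, RECQL4 was 1.61-fold lower, and RECQL, WRN, RECQL5 and RTEL1 lay within 1.28-fold of Nondifferentiation. Thus 4 of the 8 measured genes were counted as lower and 0 as higher, where 10.9% of all 9064 measured genes were lower, 10.4% were higher and 21.3% were either. RTEL1 was the gene below the floor in this pair. Over all 9 genes 6 log2 differences were below 0 and 3 above it, and their median was -0.69. Because the list was drawn up with PIF1 in view, nothing is read from these counts. The mesenchymal markers differed in both directions. The summed linear level of the 10 was 107537 in Differentiation and 52022 in Nondifferentiation, most of it from FN1, which had log2 values of 16.63 in Differentiation and 15.45 in Nondifferentiation. COL3A1 was higher too, at 11.66 in Differentiation and 9.21 in Nondifferentiation, as was COL1A1 below the floor. SNAI2, also below the floor, was nearly level, at 3.32 in Differentiation and 3.26 in Nondifferentiation. The median log2 value of the 10 was 6.22 in Differentiation and 7.26 in Nondifferentiation. VIM and TAGLN had log2 differences of -1.25 and -1.65, COL1A2, ACTA2 and LUM were also lower, and PRRX1 was at 0 in both libraries. The part of these markers in the helicase differences was not tested.

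PIF1 showed the largest difference of the 9. It stood at a log2 value of 11.08 in siSTAU1, 11.45 in siUPF1, 11.31 in siControl, 5.52 in Differentiation and 10.59 in Nondifferentiation. The Differentiation value lay far below the other 4, which spanned 0.86 on the log2 scale. The log2 difference from Nondifferentiation was -5.07, with a counting interval from -5.42 to -4.73, and it was the fifth lowest of the 9064 measured genes. About 72 reads in Differentiation and 1471 in Nondifferentiation were behind these values. RefSeq lists no gene that overlaps PIF1, and its neighbours did not share the difference: PLEKHO2 had a log2 difference of 0.39 and RBPMS2 one of -0.16, while ANKDD1A, below the floor, had -0.81.

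BLM stood at 11.32 in siSTAU1, 11.40 in siUPF1, 11.66 in siControl, 8.91 in Differentiation and 11.41 in Nondifferentiation. Its log2 difference in the differentiation pair was -2.49 (counting interval -2.62 to -2.37), and the 4 other libraries lay within 0.34 of each other. DNA2, a nuclease and helicase that trims flaps on the lagging strand and resects DNA ends together with BLM or WRN, stood at 10.41 in siSTAU1, 10.16 in siUPF1, 10.17 in siControl, 8.31 in Differentiation and 10.23 in Nondifferentiation. Its log2 difference was -1.91 (counting interval -2.07 to -1.75). BRIP1, also named FANCJ for its place in the Fanconi anaemia pathway, stood at 9.67 in siSTAU1, 9.79 in siUPF1, 9.70 in siControl, 7.67 in Differentiation and 9.34 in Nondifferentiation. Its log2 difference was -1.67 (counting interval -1.88 to -1.47). In each of these 3 genes Differentiation was the lowest library by more than 1.5 log2 units. None of CRTC3 and FURIN beside BLM, RUFY2 and SLC25A16 beside DNA2, and INTS2 and MED13 beside BRIP1 was 2-fold lower, and INTS2 had the lowest log2 difference of them, -0.70.

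RECQL4, which takes part in the start of replication, lay between both sets. It stood at 9.73 in siSTAU1, 10.34 in siUPF1, 10.19 in siControl, 9.09 in Differentiation and 9.78 in Nondifferentiation. Its log2 difference in the differentiation pair was -0.69 (counting interval -0.83 to -0.54) and passed 2-fold, at -1.04, only after a trend with GC content and transcript length was removed. Differentiation was its lowest library, and siSTAU1 and Nondifferentiation were next and differed by 0.05.

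The remaining genes were nearly level in the differentiation pair. RECQL, whose helicase restarts reversed forks, stood at 9.81 in siSTAU1, 9.94 in siUPF1, 9.86 in siControl, 9.95 in Differentiation and 9.93 in Nondifferentiation. The range over all libraries was 0.14, the smallest of the 9 genes. RefSeq places its end across that of PYROXD1, and whether reads were counted by strand is not stated, so reads of these genes may be shared. PYROXD1 stood between 8.87 and 8.97. WRN, which joins a helicase to an exonuclease, stood at 8.78 in siSTAU1, 8.63 in siUPF1, 8.52 in siControl, 8.47 in Differentiation and 8.29 in Nondifferentiation. Its log2 difference in the differentiation pair was 0.18, with a counting interval from -0.03 to 0.39. RECQL5, which binds RNA polymerase II, stood at 7.68 in siSTAU1, 7.63 in siUPF1, 7.72 in siControl, 7.93 in Differentiation and 7.57 in Nondifferentiation, a log2 difference of 0.35 (counting interval 0.09 to 0.61). RECQL5 was the 1 helicase gene with its highest value in Differentiation by more than its counting interval from Nondifferentiation. SMIM5, which overlaps RECQL5, had log2 values of 0.26 to 3.17. ERLN and LOC107985013 overlap RECQL5 as well and had no value under these symbols. Whether reads were shared with RECQL5 was not tested.

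**Figure D2:**
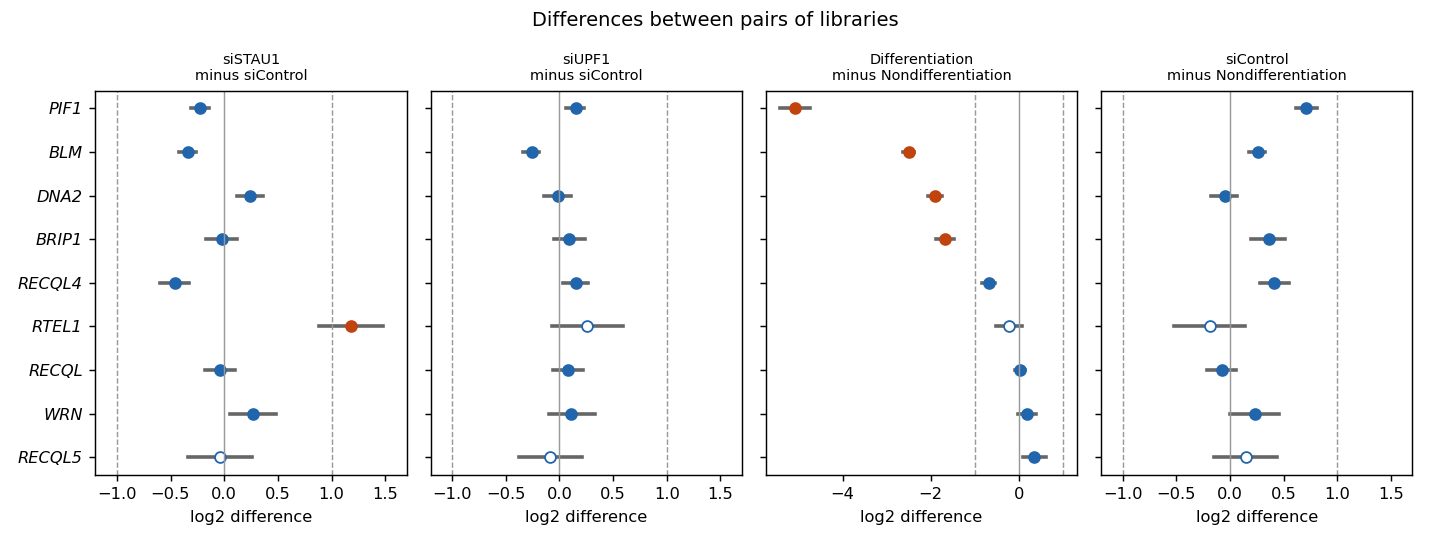
Log2 differences of the 9 helicase genes in 4 pairs of libraries, with horizontal bars for the 95% counting interval, dashed lines at 2-fold, orange points for genes counted as higher or lower and open points for genes below the floor; the Differentiation panel has a wider horizontal axis. PIF1, BLM, DNA2 and BRIP1 lie left of the 2-fold line in Differentiation, and RTEL1 at 1.18 lies right of it in siSTAU1.

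RTEL1, an iron-sulphur helicase that unwinds telomeric loops and G-quadruplexes, was the gene that differed with STAU1 knockdown. It stood at 8.45 in siSTAU1, 7.53 in siUPF1, 7.27 in siControl, 7.24 in Differentiation and 7.46 in Nondifferentiation. The siSTAU1 value was the highest of the 5, and the other 4 lay within 0.29 of each other. The log2 difference between siSTAU1 and siControl was 1.18, which is 2.26-fold, with a counting interval from 0.88 to 1.48 and about 306 reads in siSTAU1 and 128 in siControl. Of 8454 measured genes 0.0946% were counted as higher and 0.106% as lower, and with no floor on low values 4.55% of 15386 genes were higher. RTEL1 was chosen for this value and passed the floor through siSTAU1 alone, so nothing is read from these shares. Against Nondifferentiation the log2 difference was 0.99, just under 2-fold, where 0.912% of genes were 2-fold different in either direction. The siSTAU1 library also stood apart in the level of epithelial markers. The summed linear level of the 10 listed was 614 in siSTAU1, 154 in siUPF1, 64 in siControl, 148 in Differentiation and 64 in Nondifferentiation. Most of the siSTAU1 sum came from KRT8 and KRT18, at 7.53 and 7.56 in siSTAU1 and both at 2.49 in siControl. Of the 10, 0 were at 0 in siSTAU1, 2 in siUPF1, 6 in siControl, 1 in Differentiation and 4 in Nondifferentiation. ESR1 and CDH1 were among the 6 in siControl. Other markers differed as well: the blood gene HBB, below the floor, had a log2 difference of 1.84 from siControl, and the mesenchymal gene TAGLN had -1.63, the lowest of all measured genes. The summed level of the 10 blood and endothelial markers was 231 in siSTAU1 and 67 in siControl, with PTPRC at 0 in both. The part of these markers in the RTEL1 difference was not tested.

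RTEL1 shares its locus with a readthrough transcript, RTEL1-TNFRSF6B, which runs on into TNFRSF6B, the gene of a secreted decoy receptor for FAS ligand. RTEL1-TNFRSF6B stood at 5.15 in siSTAU1, 4.95 in siUPF1, 4.70 in siControl, 6.89 in Differentiation and 5.22 in Nondifferentiation. TNFRSF6B stood at 4.66 in siSTAU1, 4.95 in siUPF1, 4.63 in siControl, 6.85 in Differentiation and 4.87 in Nondifferentiation. Both were highest in Differentiation, where RTEL1 itself was near its siControl value, and neither was high in siSTAU1. In the differentiation pair the log2 difference was 1.66 for RTEL1-TNFRSF6B (counting interval 1.13 to 2.19) and 1.98 for TNFRSF6B (1.39 to 2.56), against -0.22 for RTEL1 (-0.52 to 0.07). In siSTAU1 against siControl it was 0.45 for RTEL1-TNFRSF6B (counting interval -0.39 to 1.29) and 0.02 for TNFRSF6B. All values of both genes lay below the floor, with about 168 and 164 reads in Differentiation and 35 and 27 in Nondifferentiation, so neither entered a count. They share their 3′ part, so that reads assigned to one may belong to the other. The nearby genes ARFRP1, ZGPAT and STMN3 had log2 differences of 0.84, 0.70 and 0.43 in the differentiation pair and 0.08, 0.26 and -0.40 in siSTAU1 against siControl.

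**Figure D3:**
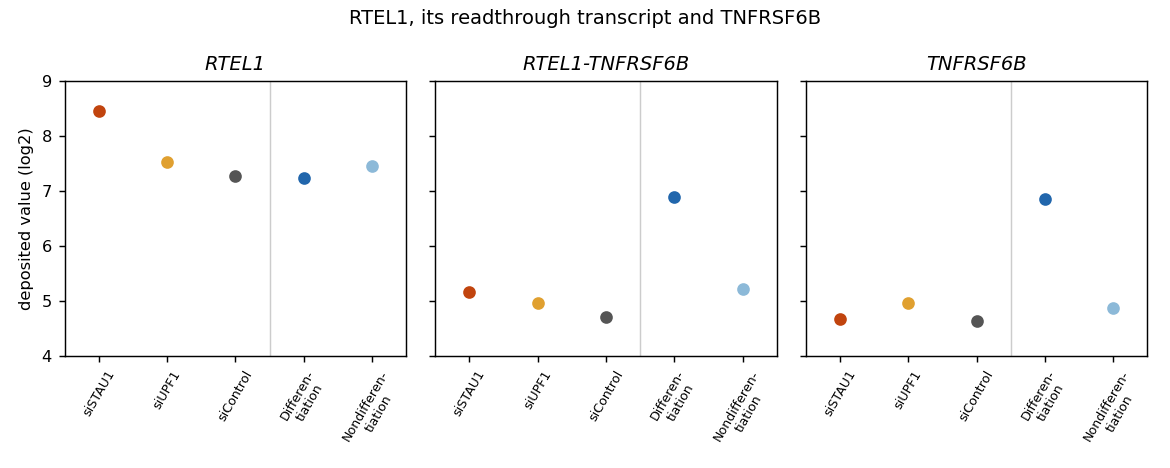
Deposited log2 value (vertical axis, starting at 4) of RTEL1, the readthrough transcript RTEL1-TNFRSF6B and TNFRSF6B in the 5 libraries, 1 point per library. RTEL1 is highest in siSTAU1, at 8.45, while the readthrough transcript and TNFRSF6B are highest in Differentiation, at 6.89 and 6.85.

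The other helicase genes stayed within 2-fold with either siRNA, as did nearly all measured genes. In siSTAU1 against siControl RTEL1 was the 1 gene past 2-fold of 8 measured, where 0.201% of all measured genes were. Since RTEL1 was chosen for this value and passed the floor through siSTAU1 alone, nothing is read from this count. Of the helicase genes RECQL4 had the lowest log2 difference, -0.46 (counting interval -0.60 to -0.33), at rank 266 from the lowest of 8454 measured genes. BLM followed at -0.34 and PIF1 at -0.23, while WRN had 0.27 and DNA2 0.24. BRIP1, RECQL and RECQL5 lay between -0.04 and -0.02. Against Nondifferentiation the RECQL4 log2 difference was -0.05 and that of PIF1 was 0.49, so these small differences were not alike against both reference libraries. In siUPF1 against siControl 0 of 7 measured genes passed 2-fold, where 0.543% of all 8475 measured genes did. The log2 differences there ran from -0.26 for BLM to 0.26 for RTEL1, which lay below the floor with a counting interval from -0.07 to 0.59. Both siRNA comparisons share the siControl library.

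The reference libraries themselves differed in some of these genes. In siControl against Nondifferentiation 0 of 7 measured helicase genes passed 2-fold, where 0.796% of all 8547 measured genes did. PIF1 was the highest, with a log2 difference of 0.71 (counting interval 0.62 to 0.81), ahead of RECQL4 at 0.41, BRIP1 at 0.36 and BLM at 0.26. DNA2, RECQL and RTEL1 had -0.05, -0.07 and -0.19. The proliferation marker MKI67 also had 0.71, the highest of the 23 measured replication and proliferation genes, whose median was 0.11.

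The lower helicase genes were set beside the genes they work with, in lists written with earlier results of these data known. Of 26 genes of replication and proliferation, 22 were measured in the differentiation pair. All 22 were lower in Differentiation, where 10.9% of all measured genes were. Some of them passed the floor through Nondifferentiation alone, such as GINS2, at 5.75 in Differentiation and 8.25 in Nondifferentiation. For this reason, and because the list was written with results known, nothing is read from this count. The median log2 difference of the 22 was -2.13, and that of all measured genes was 0.02. CCNE1, CCNE2, GINS4 and POLE2, below the floor, also had lower values in Differentiation. The gap was smallest for CCNE1, at 6.45 in Differentiation and 6.98 in Nondifferentiation. Among the measured genes of that list the differences ran from -2.58 for GINS1 and -2.51 for MCM10 to -1.36 for MCM3 and -1.08 for GINS3. BLM, DNA2 and BRIP1 lay inside this range, PIF1 lay below it, and RECQL4, RECQL, WRN and RECQL5 lay above it. The part of lower proliferation in the helicase differences was not tested.

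Next came the partners of the RecQ helicases. The counts of this and the following lists stand beside shares of 10.9% lower and 10.4% higher over all measured genes. Genes such as RPA3, at 6.35 in Differentiation and 8.6 in Nondifferentiation, passed the floor through Nondifferentiation alone. These lists too were written with results known, so nothing is read from their counts. Of 7 partner genes all were measured, 4 were lower in Differentiation and 0 higher, and the median was -1.03. TOP3A, RMI1 and RMI2, which form a complex with BLM, had log2 differences of -0.56, -1.34 and -1.03 (RMI2 was named after its value was seen), and RPA3, a subunit of the protein that coats single-stranded DNA, had the lowest, -2.24. In the Fanconi anaemia list, 4 of 10 measured genes were lower and 0 higher, with a median of -0.96. The ubiquitin-conjugating enzyme UBE2T had -1.77 and FANCD2 -1.70, while the nuclease FAN1 had 0.30.

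In homologous recombination 8 of 14 measured genes were lower and 0 higher, with a median of -1.23. Of the measured genes XRCC2 had the lowest log2 difference, -2.43, while the helicase gene FBXO18 had 0.40. Below the floor, XRCC3, named after its value was seen, fell further. It stood at 1.77 in Differentiation, about 6 reads, and 6.64 in Nondifferentiation, about 96 reads. RAD54L, a DNA motor protein that was named after its value was seen, had 0.11. Among enzymes of end resection and joint cleavage 6 of 13 were lower and 0 higher, with a median of -0.90. The exonuclease EXO1 had -2.66 and the flap nuclease FEN1 -1.85, while BRCC3 had 0.39. SLX1A and SLX1B are near-identical copies with the same value in every library, and both are counted in this list although they are not separate measurements.

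Genes of telomerase and shelterin spread widely. Of 13 measured genes 6 were lower in Differentiation and 0 higher, with a median of -0.49. TERT, the reverse transcriptase of telomerase, stood at 5.39 in Differentiation and 8.58 in Nondifferentiation, a log2 difference of -3.20 (counting interval -3.58 to -2.82). NOP10, a protein of the telomerase RNA particle, had -1.37. The shelterin gene TERF2IP had 0.50, the highest of the list. Among other iron-sulphur, replication and RNA helicases 2 of 11 measured genes were lower, close to the share over all genes, and 0 higher, with a median of -0.61. These were MCM8 at -1.82 and DDX11 at -1.81, and DDX11 has near-identical copies that could share reads. The highest of the measured genes was SHPRH at 0.22.

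**Figure D4:**
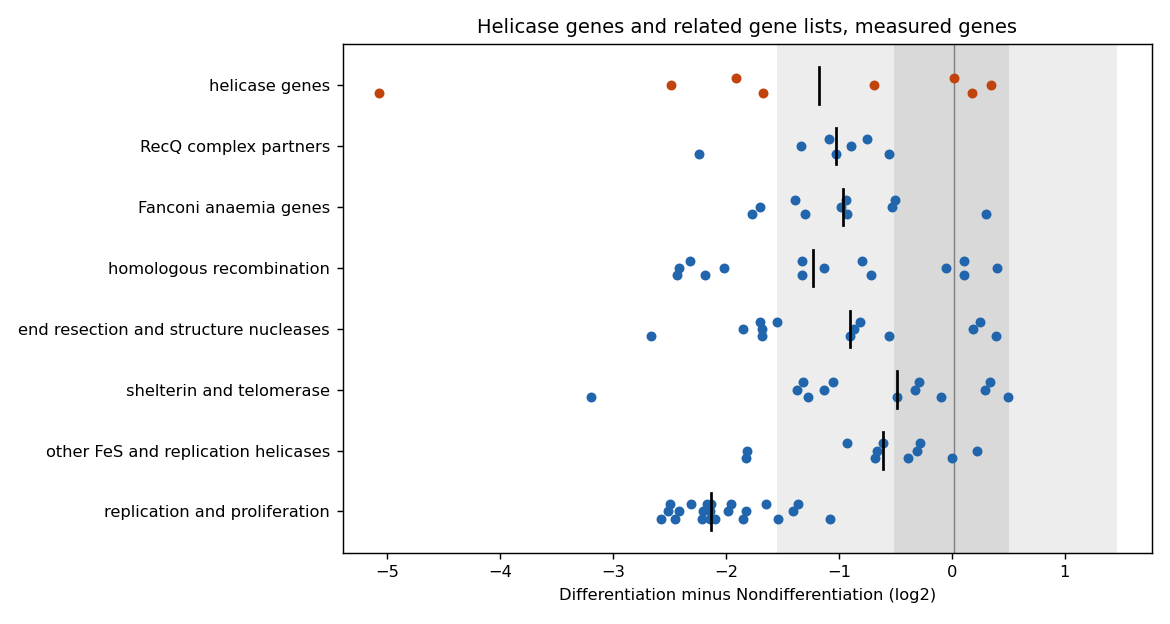
Log2 difference between Differentiation and Nondifferentiation (horizontal axis) of the measured helicase genes and of 7 related gene lists; 1 point per gene, black ticks at the list medians, shading for the middle 50% and 90% of all measured genes and a grey line at their median. The replication and proliferation genes lie between -2.58 and -1.08, and PIF1 at -5.07 lies left of every other gene drawn.

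With the siRNAs 0 measured genes of these 7 lists were 2-fold different from siControl. Of all measured genes 0.201% were in siSTAU1 and 0.543% in siUPF1, so nothing is read from this count. Below the floor, HFM1, a meiotic helicase named after its value was seen, had log2 differences of -1.53 in siSTAU1 (counting interval -2.78 to -0.28) and -1.02 in siUPF1 (-2.09 to 0.05). In siSTAU1 the list medians lay between -0.16 and 0.12, and in siUPF1 between -0.14 and 0.06, where all measured genes had 0.01 and -0.01. Single measured genes of the lists ran from -0.51, for POLA1, to 0.84 in siUPF1. In siSTAU1 they ran from -0.43, for MUS81, to 0.45, for FANCG.

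The genes whose pattern over the 5 libraries was most like that of RTEL1, PIF1 and BLM were ranked by the root mean square difference of log2 values, each centred on the gene's own mean, among 9216 genes. Nearest to BLM were ARHGAP11A, DDX39A, SGOL2, BRCA2 and E2F2, at differences of 0.08 or 0.09. Nearest to PIF1 were FAT3 at 0.22, ANKRD18B at 0.38, LOC100288637 at 0.48, SAPCD2 at 0.52 and ADCYAP1R1 at 0.56, so only FAT3 came close. FAT3 stood at 2.38 in Differentiation, a value of few reads, and 7.42 in Nondifferentiation. Nearest to RTEL1 were NFKB1 at 0.18, LRCH1 at 0.20 and LOC103021295, KCNAB1 and ZNF518B at 0.22. NFKB1 stood at 8.72 in siSTAU1, 8.08 in siUPF1, 7.96 in siControl, 7.95 in Differentiation and 8.23 in Nondifferentiation. With 5 libraries, 1 high or low library sets most of such a likeness.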

How the data were processed

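RNA of SH-SY5Y cells was sequenced in 5 libraries, 1 per group. Per the labels' protocols, Trizol RNA (500 ng) entered Lexogen QuantSeq libraries. The deposited values are log2 expression values, 1 per symbol. The submitters' processing notes name Bowtie2, edgeR and hg19 but no role or version for them. How reads were counted, on which annotation and by which strand is not stated. The deposited log2 values share a maximum of 18.01 and upper quartiles of 8.63 to 8.64, the pattern of quantile normalization (inferred from the values), which removes differences in total RNA.

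Groups came from the titles. Differences are subtractions of deposited log2 values over the whole table. The 9 genes and all lists were chosen with earlier results of these data known. Named genes are the 9 members, STAU1, UPF1, list extremes, neighbours of called members and the 5 most similar patterns for RTEL1, PIF1 and BLM. Reads were estimated by ranking each library's distinct values up to rank 500, and beyond that by the unit at that rank. This takes each read number as present and leaves the estimates approximate. No difference was given for a gene with 3 reads or fewer. Counting intervals are 1.96 Poisson standard errors and ignore amplification. GC content and length came from GENCODE 29 transcripts, matched by symbol for 95.9% of measured genes. The RefSeq annotation is of another build than hg19 and served for names, neighbours and promoter sequences. Values of some listed genes are not reported here. Steps were tested on simulated data. Python 3.11.15, numpy 2.4.6 and pandas 2.3.3 were used.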

Additional observations from a re-analysis of the deposited data

How the results depend on the processing

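Of 30 recounts of the helicase genes past 2-fold, 27 stayed within 1.5 times the reported count. The 27 include counts of 0 that stayed 0, as in all recounts of siUPF1 against siControl, so nothing is read from this share. In siSTAU1 against siControl the count of 1 became 0 with the floor at the upper quartile, which leaves RTEL1 unmeasured and 0.0699% of genes past 2-fold, and 0 with Nondifferentiation as the reference, where RTEL1 had 0.99. In siControl against Nondifferentiation the count of 0 became 1 at a threshold of 1.5-fold, from PIF1, where 5.46% of all measured genes passed. In Differentiation the count ran from 3 to 5 over the alternatives: BRIP1 dropped out with the higher floor, and RECQL4 entered at 1.5-fold and, at -1.04, after removal of the GC and length trend. Of 270 recomputed differences of single genes, 263 kept their sign and 253 stayed within the counting interval of the reported value. Of the 17 outside that interval, 10 had Nondifferentiation as the reference for an siRNA library. A changed floor or threshold leaves the difference of a gene as it is, so that part of the 270 was fixed in advance. Recentring on the median difference and equalizing sums moved all genes of a pair alike and by little. With 16 linear units added to both values, PIF1 had -4.66 in Differentiation. No sign of a gene counted as higher or lower turned. No paired analysis was possible because each group has 1 library, and for the same reason no library could be left out. Depth limits RTEL1-TNFRSF6B and TNFRSF6B, with 18 to 35 estimated reads outside Differentiation.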
